A study of Oryctolagus cuniculus with 3 samples.

Results

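Intergenic long non-coding RNAs with a strand are assembled transcripts that lie outside annotated genes (class code u in the deposited tables) and for which the assembly gives a plus or a minus strand. By that rule 1656 of the 15335 transcripts in the deposited long non-coding table were members, or 10.8% of the table, at 1290 loci. Levels were not used to choose them. The RNA came from cumulus-oocyte complexes, each an oocyte with the somatic cumulus cells around it, from the ovaries of IRA rabbits (Oryctolagus cuniculus), in a study of 150 females that were 35 days old at the start and stayed 4 weeks in rooms with a set ammonia level. The libraries are labelled LAC (ammonia at 10 ppm), HAC (ammonia at 30 ppm) and CG (the control, under 3 ppm), with 1 library in each group. The labels do not say how many animals a library pools. With 1 library a group there is no replicate error, so no difference below has a test, and each one compares libraries rather than ammonia concentrations.

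Long intergenic RNAs are made by RNA polymerase II, and most are capped, spliced and polyadenylated like messenger RNAs, but they hold no long open reading frame that is used. As a class they have fewer exons and lower levels than messenger RNAs, and they are often restricted to 1 tissue or cell type, with many in testis and in oocytes. Some act on genes beside them and others on chromatin, messenger RNA or proteins elsewhere in the cell. An assembly can place an RNA on a strand through its splice sites, so a transcript with introns gets a strand more readily than one without.

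The libraries had 70891162 to 72520954 valid reads, per the file headers, and the long non-coding table held an estimated 6853527 reads in CG, 8183511 in LAC and 7690190 in HAC. Members took 55.7% of these in CG, 48.8% in LAC and 59.5% in HAC. It is uncertain which library each of the labels LAC and HAC belongs to: the files of both hold the same gene table, headed LAC in each, and their totals of valid reads are exchanged between the blocks of the files. A direction drawn from either library assumes its label, and at gene level only LAC and CG were analysed here. Spliced reads made up 22.01% of reads in the CG file, 16.23% in the mapping block of the LAC file and 19.89% in that of the HAC file, and multi-mapped reads made up 25.41% to 26.99%. All 16 oocyte markers of a list of 16 were lower in LAC than in CG by at least 1 on the log2 scale, and their summed level was 939 CPM (counts scaled to library size) in LAC, against 4740 CPM in CG. The 10 granulosa and cumulus markers found summed to 13800 CPM in LAC and 14100 CPM in CG, and none differed by 1. In stroma 5 of 7 markers were higher in LAC, at 140 CPM in all, against 36.2 CPM in CG. In a bulk sample, fewer cells of a type and less RNA per cell cannot be told apart.

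Members were mostly short spliced transcripts. Of the 1656, 416 (25.1%) had 1 exon, 759 had 2, 329 had 3 and 152 had 4 or more, up to 8 in MSTRG.19778.2. Intergenic transcripts without a strand, 4098 in number, all had 1 exon. Of the 4514 intergenic transcripts with 1 exon, 9.22% had a strand. Members had a median length of 1074 bases, against 518 bases in those without a strand, and ranged from 206 to 47479 bases. The longest, MSTRG.19209.1, is a single exon on the minus strand at NC_013689.1:11336112-11383590, 81.1 kb before the start of MED13L, a subunit gene of the Mediator kinase module. It stood at 2.75 FPKM in CG, 4.54 FPKM in LAC and 3.06 FPKM in HAC. Strands were used about equally, with 867 members on plus and 789 on minus. The coding-potential scores deposited by the authors reached at most 0.49 (CPC) and 0 (CNCI) in members. Coordinates are those of the deposited tables, for which the submitters' processing notes name the genome build OryCun2.0. On its sequences 1161 members lay on chromosomes, 489 on scaffolds and 6 on the mitochondrial genome.

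Levels are the authors' FPKM, fragment numbers divided by transcript length and sequencing depth, and most members were low. The median member measured 1.71 FPKM in CG, 1.19 FPKM in LAC and 2.25 FPKM in HAC, and at 1 FPKM or more stood 1223 members in CG, 869 in LAC and 1376 in HAC. LAC also listed the most members at 0, with 274 in LAC, against 126 in CG and 88 in HAC. In all, 1599 members reached 1 FPKM in at least 1 library, 671 did so in all 3, and 13 were at 0 throughout. The order of the medians turned on exon number. Members with 1 exon had medians of 1.78, 2.13 and 1.87 FPKM in CG, LAC and HAC. Those with 2 exons had 1.66, 1.34 and 2.12 FPKM in the same order. Those with 3 exons had 1.86, 0.44 and 2.87 FPKM, and those with 4 or more had 1.9, 0.425 and 2.86 FPKM. LAC thus had the highest median among single-exon members and the lowest among spliced ones.

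**Figure D1:**
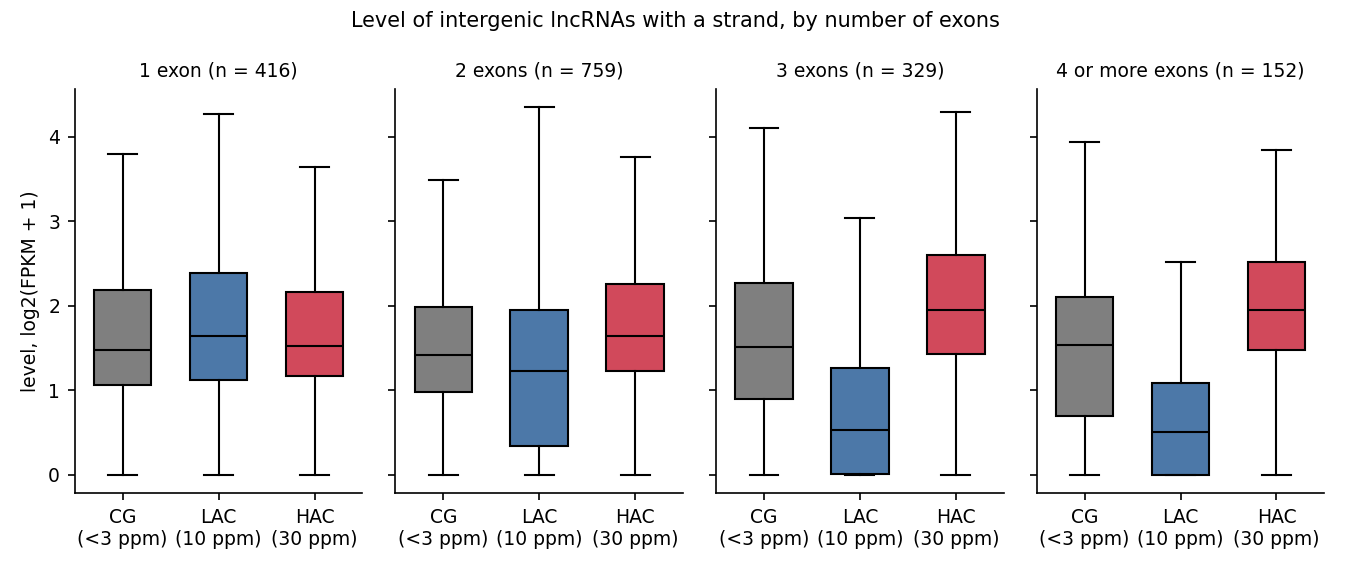
Level of the 1656 members on the log2(FPKM + 1) scale in the libraries CG, LAC and HAC, in 1 panel for each number of exons; boxes span the quartiles, the line is the median over transcripts and whiskers reach 1.5 times the box. The LAC box sits below the other boxes in members with 3 exons (median 0.44 FPKM) and 4 or more exons (0.425 FPKM), but not in those with 1 exon (2.13 FPKM).

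Differences are given on the log2(FPKM + 1) scale, which understates those of low transcripts. A member counted as higher or lower if it differed by 1 or more and reached 1 FPKM in either library of the pair. A member can thus enter a count only through the library in which it is high. In LAC against CG, 1366 members were tested by this size rule, 122 (8.93%) were higher and 406 (29.7%) were lower in LAC. Over the 10259 long non-coding transcripts tested, 13.6% were higher and 12.4% lower. The median difference was -0.28 over members and 0.32 over all long non-coding transcripts. Of the 406 lower members, 130 were listed at 0 in LAC. In 287 of them HAC lay within 1 of CG, in 91 HAC was lower too, and in 28 HAC was higher than CG by 1 or more.

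Exon number separated these differences. Of single-exon members 34 of 372 (9.14%) were lower in LAC than in CG, and the share was 27.8% of 641 with 2 exons, 55.4% of 242 with 3 and 54.1% of 111 with 4 or more. Over all long non-coding transcripts the share also varied with exon number. It was 7.33% with 1 exon, 22.8% with 2 or more and 34.5% with 3 or more. Median differences of members were 0.23 with 1 exon, -0.22 with 2, -1.11 with 3 and -1.07 with 4 or more. When FPKM was divided by median-of-ratios factors, which moved the median of all long non-coding transcripts to 0.02, the single-exon median became -0.08 and the others -0.53, -1.24 and -1.28, in the same order. Among members that were the only listed transcript of their locus and overlapped no other member, 909 in all, the median was 0.25 with 1 exon and -1.02 with 3 or more. The oocyte markers were lower in the library called LAC here. Its coverage gave the counts of the shared gene table, whose maximum of 39491.82 FPKM stands in a block with 72520954 valid reads. The mapping block with that total gives 16.23% spliced reads, against 19.89% in the other file's block. By these values the library called LAC also had the lower spliced share, whichever ammonia label it belongs to. The part of the oocyte markers or of the spliced share in these differences was not tested.

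In HAC against LAC, the differences of members with 2 exons formed a pair of humps. There 18.8% of the 692 tested lay between -0.5 and 0 and 18.2% between 1 and 1.5, with 9.68% between 0.5 and 1. Single-exon members lay mainly in the hump near 0, with 34.3% between -0.5 and 0, 6.81% between 0.5 and 1 and 8.64% between 1 and 1.5. Those with 3 or more exons lay mainly in the upper one, where 24.8% lay between 1 and 1.5 and 25% between 1.5 and 2. In the other comparisons members with 2 exons showed no clear pair in bins of 0.5: HAC against CG had a single hump, with 28.5% between 0 and 0.5, and LAC against CG a broad one, with 14.7%, 15.3%, 13.7% and 19.7% in the successive bins from -1.5 to 0.5. By strand the shares lay close together, with 30.5% of plus-strand and 28.9% of minus-strand members lower in LAC than in CG.

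HAC against CG gave smaller differences, with a median of the opposite sign. Of 1524 members tested 263 (17.3%) were higher and 149 (9.78%) were lower in HAC, against 10.1% and 7.06% of the 9414 long non-coding transcripts tested, and the median was 0.23, against 0.1 over all. The balance of the counts turned with a pseudocount of 5, to 54 higher and 63 lower, and among members with a mean of 50 FPKM or more it was 20 higher and 26 lower. Isoforms of the same locus count separately in these counts. The share higher in HAC was 6.52% with 1 exon, 15.2% with 2, 27.3% with 3 and 33.1% with 4 or more, and the medians were 0.01, 0.25, 0.56 and 0.49. Over all long non-coding transcripts the share was 7.37% with 1 exon, 14.7% with 2 or more and 21.2% with 3 or more. HAC against LAC showed the widest gap: 645 of 1506 members (42.8%) were higher and 122 (8.1%) lower in HAC, against 16.8% and 12.6% of 10661 transcripts, with a median of 0.61, against -0.26 over all. In that comparison 73.3% of members with 3 exons and 72% of those with 4 or more were higher, at medians of 1.44 and 1.55, while single-exon members had 13.1% and a median of -0.24. Over all long non-coding transcripts 46.4% with 3 or more exons and 9.25% with 1 exon were higher. The 3 comparisons share libraries, so they are not separate evidence.

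**Figure D2:**
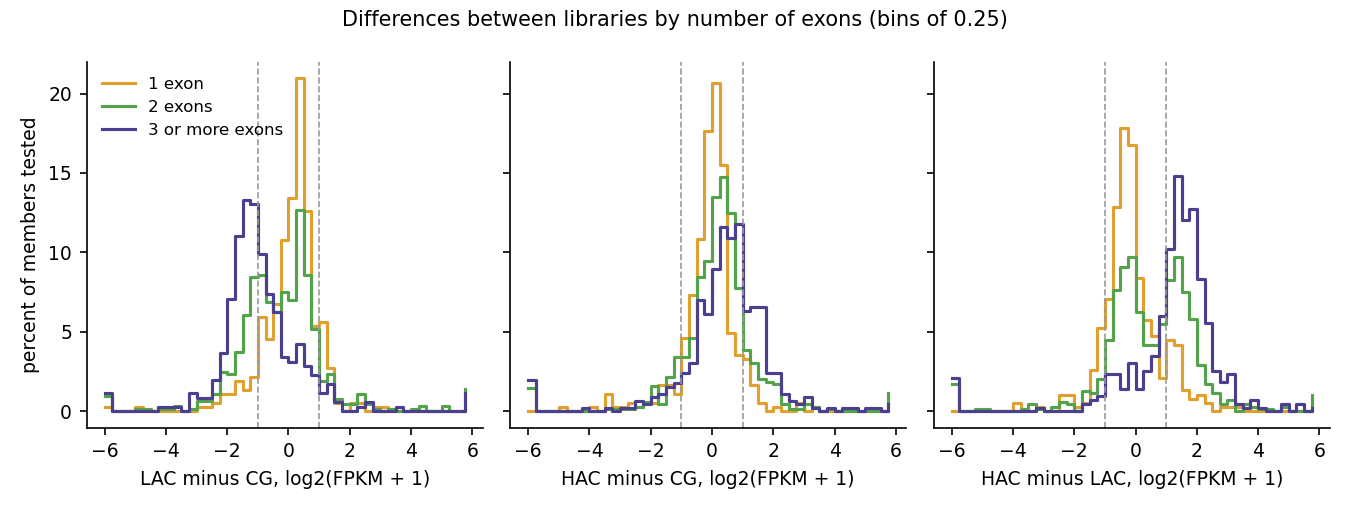
Share of members tested in each bin of 0.25 of the difference between libraries on the log2(FPKM + 1) scale, for members with 1, 2 and 3 or more exons; dashed lines mark -1 and 1, and values beyond the axis are gathered in the outer bins. Members with 3 or more exons centre near -1.09 in LAC minus CG and near 1.47 in HAC minus LAC, and those with 2 exons have a clear pair of humps in HAC minus LAC and a broad shoulder at the lower place in LAC minus CG.

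The order of the libraries was most often LAC, CG, HAC from low to high, at 550 (36.7%) of 1500 members with 3 unequal values and at least 1 FPKM, against 17.3% of all long non-coding transcripts. From CG through LAC to HAC 147 members (9.8%) increased and 133 (8.87%) decreased, near the 10.9% and 9.11% over all transcripts. If the labels LAC and HAC were exchanged, the increasing order would be CG, HAC, LAC, which 245 members (16.3%) had, against 28.1% over all. LAC was the lowest library at 763 (50.9%), against 27.5% of all long non-coding transcripts. The share was 26.4% of single-exon members and 59.3% of those with 2 or more exons. Among the 984 members whose libraries spanned at least 1, LAC was the library farthest from the mean of the other two at 48.8% (against 52.7% of all), HAC at 34.3% (28.6%) and CG at 16.9% (18.8%). The 48.8% is near the share over all transcripts, but the side differed: LAC lay below the others at 388 of these 480 members, and over all transcripts at 1067 of 2463.

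Other classes with introns shared part of the pattern. With 3 or more exons, the median LAC minus CG was -1.09 over 353 members, -0.72 over 94 antisense transcripts, -0.17 over 499 isoforms that share a junction with an annotated gene and 0.13 over 246 annotated non-coding transcripts. In HAC minus LAC the medians were 1.47, 1.2, 0.34 and -0.1 in the same order of classes. Exon-overlapping transcripts with 3 or more exons had -0.19 over 38 in LAC minus CG and 0.39 over 42 in HAC minus LAC. Intronic ones had 0.06 over 44 and 0.84 over 52 in the same order of comparisons. Single-exon classes lay together, at 0.23 in members, 0.38 in intergenic transcripts without a strand and 0.47 in intronic ones for LAC minus CG. These classes differ in level and length as well, and no test compared them.

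**Figure D3:**
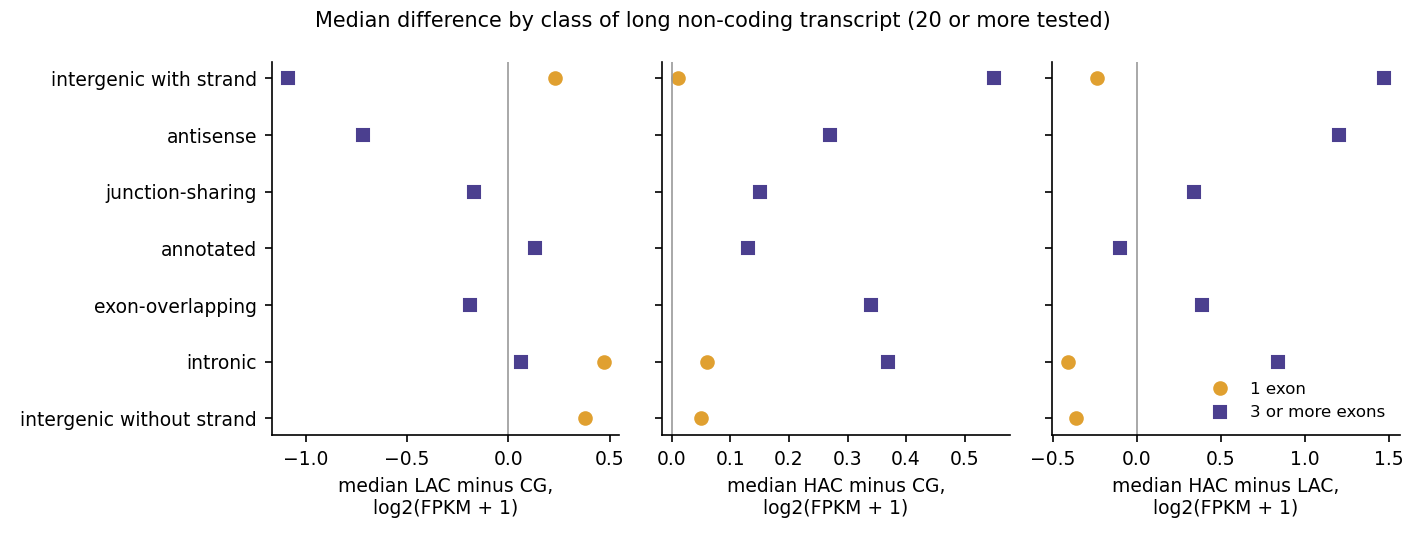
Median difference on the log2(FPKM + 1) scale by class of long non-coding transcript, for transcripts with 1 exon (circles) and 3 or more (squares), where at least 20 were tested; x axes differ between panels. Members with 3 or more exons have the outermost square in each panel, -1.09, 0.55 and 1.47, and antisense transcripts the next one in LAC minus CG and HAC minus LAC.

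Distance from coding genes also went with the difference. A coding gene was on the same sequence for 1508 members, at a median gap of 22415 bases, and 610 (40.5%) lay within 10 kb of one. In LAC against CG 16.7% of the 534 tested within 10 kb were lower, 35.3% of 422 at 10 to 100 kb and 39.3% of 298 beyond 100 kb. The nearer members had fewer exons, with 203 of 610 single-exon. Within members of 3 or more exons the shares were 38.6%, 59.1% and 61.4%, and within those of 2 exons 18.3%, 32.3% and 29.8%, in the same order of distance. Of the 610 near a gene, 168 overlapped its span in the gene table although their class code is intergenic, 146 lay before its start on the same strand and 138 before its start on the opposite strand. Lower shares varied by chromosome too, from 8.7% of 23 tested members on NC_013686.1 to 50% of 50 on NC_013671.1.

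Most of the summed level came from a few places. The 10 highest members held 67.8% of the summed FPKM of members in CG, 63.2% in LAC and 75% in HAC. Highest among single-exon members was MSTRG.16638.1, 342 bases on the plus strand at NC_013685.1:40798632-40798973, 0.155 kb before the start of PARP2, a poly(ADP-ribose) polymerase of DNA repair. It was at 17400 FPKM in CG, 32500 FPKM in LAC and 21900 FPKM in HAC. LAC was highest, by 0.90 over CG, while PARP2 itself had 14.6 CPM in LAC, against 26.1 CPM in CG.

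The loci with the highest joint sum were MSTRG.16948 (minus strand, 15 members) and MSTRG.16949 (plus strand, 9 members). Both span nearly the same bases, NC_013685.1:68976207-68986645 and NC_013685.1:68976207-68986644, beside NEMF, a gene of ribosome quality control. Every member there has 2 exons and 304 to 587 bases. Single transcripts and the sum of each strand differed widely between libraries, and the joint sum of both strands did not. MSTRG.16948.3 was listed at 0 FPKM in CG, 10900 FPKM in LAC and 0 FPKM in HAC. MSTRG.16949.3 stood at 9280 FPKM in CG, 2.52 FPKM in LAC and 38700 FPKM in HAC, and MSTRG.16948.9 measured 6340 FPKM in CG and 0 in both others. The minus-strand locus summed to 19750, 51480 and 19870 FPKM in CG, LAC and HAC, the plus-strand locus to 40130, 11870 and 53000 FPKM, and both together to 59880, 63350 and 72870 FPKM. The difference of the joint sum was 0.08 for LAC against CG and 0.28 for HAC against CG. In LAC against CG 10 of these 24 members were counted as higher and 6 as lower. In all, 292 members overlapped a member on the opposite strand, and whether the deposited values separate the strands there is uncertain.

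**Figure D4:**
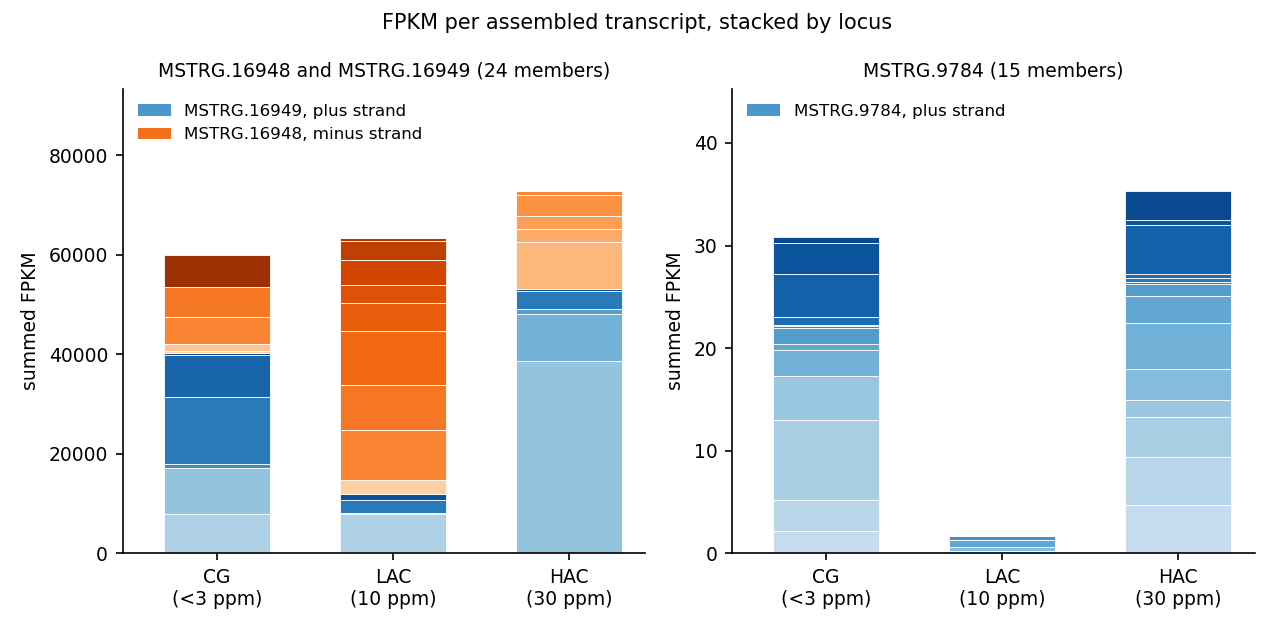
Summed FPKM of the members of a locus in CG, LAC and HAC, with 1 band for each assembled transcript. At MSTRG.16948 and MSTRG.16949 the bands and strands change while the sum stays between 59880 and 72870 FPKM; at MSTRG.9784 the sum is 30.87 FPKM in CG, 1.67 FPKM in LAC and 35.36 FPKM in HAC.

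Another locus of high level kept its leading transcript. MSTRG.18322, 5 members on the plus strand 7.18 kb from RAD51C, a gene of recombination repair, summed to 14210, 21600 and 22330 FPKM in CG, LAC and HAC with the same leading transcript, MSTRG.18322.5, in each library. In the RefSeq gene table of another rabbit assembly, mOryCun1.1, used for names and order only, the gene next to NEMF is RN7SL1, the RNA of the signal recognition particle. The 3 genes next to RAD51C on one side there are small nuclear RNA genes. Whether these members are copies of such RNAs was not tested. Of the 134 loci with at least 2 members that were expressed in all 3 libraries, 63 (47%) had the same leading transcript in each. Mitochondrial MSTRG.1, with 6 members on the minus strand, summed to 831.6 FPKM in CG, 658.5 FPKM in LAC and 1468 FPKM in HAC.

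Some loci with many isoforms were low in LAC as a whole. Of the 23 loci with 5 or more members, the summed FPKM was lower in LAC than in CG by at least 1 at 8 (34.8%) and higher at 3 (13%), against 27.1% and 7.06% of the 1119 loci tested. In HAC against CG it was lower at 1 (4.35%) and higher at 6 (26.1%), against 6.24% and 12.3% of 1202. With 23 loci, these shares rest on few cases. MSTRG.9784, a plus-strand locus at NC_013679.1:2725855-2803160 whose 15 members have 3 to 5 exons, summed to 30.87 FPKM in CG, 1.67 FPKM in LAC and 35.36 FPKM in HAC, and 11 of its members were listed at 0 in LAC. Its nearest coding gene, ATP6AP1L, lies 125 kb away and had 5.43 CPM in LAC and 4.24 CPM in CG. MSTRG.3218, with 5 members 249 kb from SEMA6A, summed to 12.2 FPKM in CG, 2.34 FPKM in LAC and 13.7 FPKM in HAC. Overlapping loci on both strands at NC_013681.1:122476613-122577685, MSTRG.12882 to MSTRG.12889 with 8 members, summed to 46.16, 6.42 and 54.85 FPKM in CG, LAC and HAC. MSTRG.2301, with 6 members 111 kb from TUSC3, summed to 4.88, 1.57 and 26.17 FPKM in the same order, so HAC stood above both other libraries. MSTRG.25850, with 7 members on a scaffold with no coding gene, measured 99.84 FPKM in CG, 5.93 FPKM in LAC and 8.02 FPKM in HAC, but it overlaps MSTRG.25849 on the other strand, and together they summed to 872.4, 1133 and 1333 FPKM.

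Members alone at their locus share it with no other transcript of the long non-coding table. Assembled transcripts outside that table were not checked, so sharing of reads with them is possible, also where 0 is listed. Such members with at least 5 FPKM and the widest differences are named here, a choice made after their values were seen. MSTRG.673.1, 2 exons at NC_013669.1:87464183-87464943, was at 14 FPKM in CG, 0.27 FPKM in LAC and 38.6 FPKM in HAC. Its estimated reads were 431, 7 and 1149, and the ratio of LAC to CG was 0.0193 (95% exact binomial interval 0.00773 to 0.0402, counting error only). MSTRG.1693.2, 4 exons at NC_013669.1:192759591-192769509, had 17.8 FPKM in CG, was listed at 0 in LAC and had 13.3 FPKM in HAC. It lies 9.18 kb before the start of LOC100356950, described in the deposited tables as a putative oocyte-secreted protein 1 homolog, which had 107 CPM in LAC, against 384 CPM in CG. MSTRG.22288.1 stood at 14.6 FPKM in CG, 0.85 FPKM in LAC and 20.2 FPKM in HAC. MSTRG.23948.1, 16.9 kb from F2RL1, the gene of a protease-activated receptor, measured 64 FPKM in CG, 7.95 FPKM in LAC and 27.3 FPKM in HAC. F2RL1 had 2.11 CPM in LAC, against 11.7 CPM in CG. All 4 have introns, and LAC was the lowest library at each. They were chosen for low values in LAC against CG, so that order is partly set by the choice.

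Fewer members alone at their locus were higher in LAC than in CG, 52 of 776 tested (6.7%), against 179 lower (23.1%). Over all long non-coding transcripts tested 13.6% were higher and 12.4% lower. MSTRG.26529.1, a single exon on a scaffold without a coding gene, was at 6.1 FPKM in CG, 27.9 FPKM in LAC and 4.15 FPKM in HAC, a ratio of LAC to CG of 4.58 (interval 4.2 to 4.99). MSTRG.10409.1 stood at 3.59 FPKM in CG, 11.8 FPKM in LAC and 2.57 FPKM in HAC. MSTRG.17385.1, 2 exons 4.11 kb before SLC16A9, a monocarboxylate transporter family gene, measured 2.67 FPKM in CG, 11.9 FPKM in LAC and 5.7 FPKM in HAC. MSTRG.16785.1, a single exon of 12374 bases, was listed at 0 in CG and had 7.03 FPKM in LAC and 5.76 in HAC, from an estimated 3330 and 2943 reads. LAC and HAC both held it, and CG did not.

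Differences between HAC and both other libraries ran both ways. MSTRG.5038.1, a single exon of 9007 bases at NC_013672.1:45972052-45981058, was at 8.37 FPKM in CG, 8.75 FPKM in LAC and 0.03 FPKM in HAC, from an estimated 3220, 3016 and 12 reads. MSTRG.7597.1 stood at 18.6 FPKM in CG, 24.8 FPKM in LAC and 0.78 FPKM in HAC, and MSTRG.6914.1 had 25.3, 17.6 and 2.86 FPKM in the same order. These 3 are single-exon members picked for low values in HAC, which was the lowest library at each. The same choice gave MSTRG.21063.1, with 2 exons and 3.33 FPKM in CG, 8.98 FPKM in LAC and 0.12 FPKM in HAC. It also gave MSTRG.7638.1, with 1 exon and 11.3 FPKM in CG, 1.16 FPKM in LAC and 1.84 FPKM in HAC, where LAC was lowest. Higher in HAC was MSTRG.26164.1, 2 exons, with 1.16 FPKM in CG, 0 FPKM in LAC and 19.9 FPKM in HAC, with LAC minus CG at -1.11, so LAC and CG differed there too. MSTRG.11797.1 was listed at 0 in CG and in LAC and had 7.3 FPKM in HAC, from an estimated 66 reads. MSTRG.4376.1, a 2-exon member of 220 bases and one of the highest alone at their locus, measured 367 FPKM in CG, 539 FPKM in LAC and 1710 FPKM in HAC, a ratio of HAC to CG of 4.65 (interval 4.48 to 4.83). Other members of high level that are alone at their locus differed by less than 1 in each comparison, among them MSTRG.10550.1, 0.032 kb before SOX4, with 224 FPKM in CG, 187 FPKM in LAC and 234 FPKM in HAC, and MSTRG.25295.1 with 179, 161 and 175 FPKM.

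**Figure D5:**
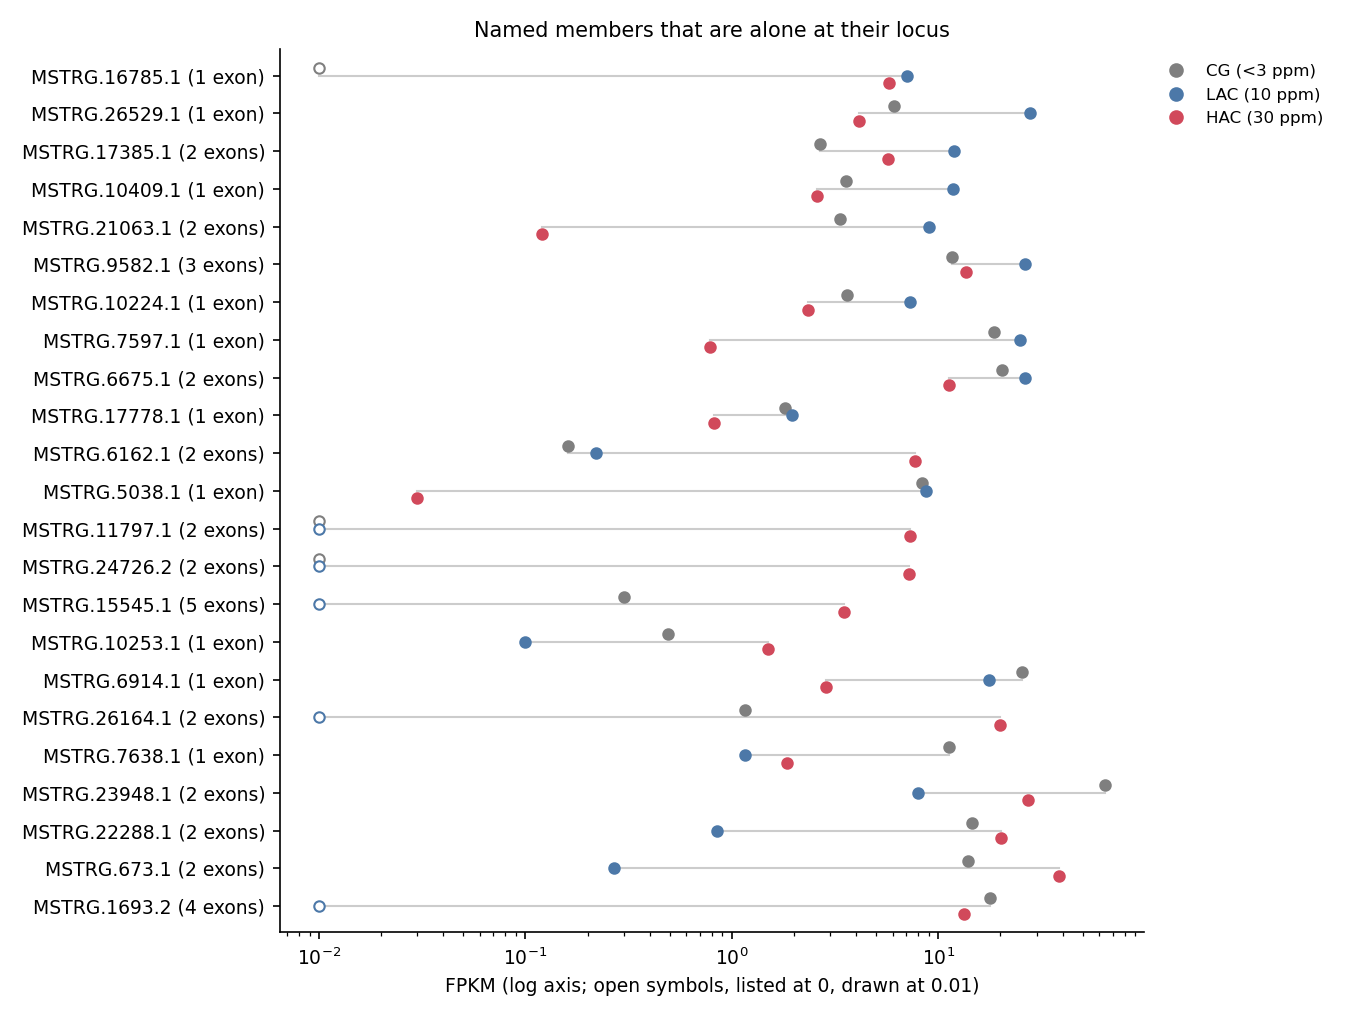
FPKM of 23 named members that are alone at their locus, on a log axis, with 1 symbol each for CG, LAC and HAC; open symbols are values listed at 0, drawn at 0.01, and members are sorted by LAC minus CG. MSTRG.1693.2 and MSTRG.673.1, at the bottom, are low in LAC only, and MSTRG.5038.1 and MSTRG.7597.1 in HAC only.

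Of the members with at least 1 FPKM in a library, 7 lay within 10 kb of the 142 genes of the ovarian lists found in the gene table, or 4.93 for each 100 genes, against 2.94 for each 100 of all coding genes. They were 4 members near granulosa and cumulus genes, 2 near oocyte genes and 1 near a transcription factor of the ovary, while the other 11 lists, among them cumulus expansion, steroid synthesis, cell cycle, and ammonia and glutamine, had 0. Genes of activin and its inhibitor had such members. MSTRG.6675.1, 2 exons at NC_013675.1:62754973-62756763, lies 1.44 kb before INHBB, which encodes the inhibin beta B chain, on the opposite strand, and was at 20.4 FPKM in CG, 26.4 FPKM in LAC and 11.3 FPKM in HAC. MSTRG.9582.1, 3 exons at NC_013678.1:24703990-24708656, lies 1.1 kb before INHBA, the inhibin beta A chain gene, on the same strand, and stood at 11.7 FPKM in CG, 26.4 FPKM in LAC and 13.6 FPKM in HAC. INHBB had 2670 CPM in LAC and 2880 CPM in CG, and INHBA had 2260 CPM in LAC and 2420 CPM in CG. MSTRG.10224.1, a single exon 0.101 kb before FST, which encodes the activin-binding protein follistatin, measured 3.61 FPKM in CG, 7.29 FPKM in LAC and 2.35 FPKM in HAC, and FST had 278 CPM in LAC and 234 CPM in CG. At all 3 members LAC was the highest library as deposited, but with median-of-ratios factors LAC minus CG of MSTRG.6675.1 went to -0.07, against 0.36 without. In the coding genes LAC minus CG was -0.11 for INHBB, -0.10 for INHBA and 0.25 for FST. The fourth, MSTRG.2817.1, a single exon of 19137 bases 4.2 kb beyond the end of FSHR, the gene of the follicle-stimulating hormone receptor, was at 1.74 FPKM in CG, 2.66 FPKM in LAC and 1.53 FPKM in HAC, and it is named to complete the count, after its values were seen.

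Both members near oocyte genes were lowest in LAC, but in LAC and CG both lay below 1 FPKM, too low to be tested in that comparison. LAC minus CG was -0.38 for MSTRG.15545.1 and -0.44 for MSTRG.10253.1, short of the size rule. MSTRG.15545.1, 5 exons, overlaps the span of ZP4, a gene of the zona pellucida around the oocyte, and was at 0.3 FPKM in CG, 0 FPKM in LAC and 3.48 FPKM in HAC. ZP4 had 60.4 CPM in LAC, against 236 CPM in CG. MSTRG.10253.1, a single exon 0.110 kb before DDX4, a germ-cell RNA helicase gene, stood at 0.49 FPKM in CG, 0.10 FPKM in LAC and 1.5 FPKM in HAC, from an estimated 21, 4 and 64 reads. DDX4 had 3.43 CPM in LAC, against 19.8 CPM in CG. MSTRG.17778.1, 0.031 kb before EMX2, a homeobox gene, measured 1.81 FPKM in CG, 1.95 FPKM in LAC and 0.82 FPKM in HAC, and EMX2 had 15.7 CPM in LAC and 14.2 CPM in CG.

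Members and the coding genes nearest to them differed between libraries in only loosely related ways. Over 858 pairs within 100 kb, Spearman's rho between member and gene in LAC minus CG was 0.23, and over 505 pairs within 10 kb it was 0.28. It was 0.30 over 270 single-exon members and 0.18 over 588 with 2 or more exons within 100 kb. All points share the same pair of libraries, some share a gene, and no p is given. In 36 pairs both were lower in LAC and in 8 both were higher. In 12 the member was higher and the gene lower, and in 0 the member was lower and the gene higher. Genes were more often lower than higher in general. Where the member did not pass the size rule, the gene was lower in 38 pairs, higher in 10 and neither in 532. Most members that were lower in LAC, 154, had a neighbour that did not pass the size rule.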

How the data were processed

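RNA-seq libraries of rabbit cumulus-oocyte complexes, 1 each for CG, LAC and HAC, were made by the submitters from total RNA after depletion of ribosomal RNA, with a dUTP-marked second strand, per the labels' protocols. Tools named in the submitters' processing notes are fastp and HISAT2, and the build is OryCun2.0. How transcripts were assembled and quantified is not stated there. Per the file headers, the deposited tables give FPKM for each long non-coding transcript, a coverage signal (mean read depth), and for each gene an estimated count whose column the authors stacked on other text. The coding-potential scores (CPC and CNCI) are the authors' own, per the file headers. The deposited count equals coverage times length over 75, so reads were estimated as coverage times length over the read length of 150 bases. Ratios of estimated reads have 95% exact binomial intervals that cover counting error only. The gene-table FPKM was read only for its maximum.

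Members were transcripts of class code u with a strand. Members, gene lists and neighbour lists were chosen with earlier results of these data known. FPKM was used as deposited, with a pseudocount of 1, a minimum of 1 FPKM in the higher library and a size rule of 1 on the log2 scale. Gene counts were scaled to CPM with trimmed mean of M values factors (30% of ratios and 5% of levels trimmed), for LAC and CG only. The gene tables of the LAC and HAC files were equal in all 39681 rows, so 2 per-sample columns of the HAC file were not used. The shared table has a maximum of 39491.82 FPKM, the one that the statistics block of the HAC file states. The LAC coverage column gave the shared table's counts within 5% at 96.6% of 829 member loci, and the HAC column at 5.14% of 1012.

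Named members were the 8 of highest mean FPKM, the 5 largest and 5 smallest differences of each comparison among those of at least 5 FPKM, up to 3 a list within 10 kb of a listed gene, the longest, the one with most exons, the locus with most members, and up to 5 a library that were at 0 in the others. Since overlapping isoforms filled these places, members alone at their locus were added by the same sizes after the values were seen. RefSeq names came from the table of assembly mOryCun1.1. The size rule was tried on simulated data before use. These held counting noise around CG and planted changes, with no variation between animals or libraries, so they cannot show how it performs under such variation. Alternatives were other pseudocounts, minimum levels and size rules, median-of-ratios factors, sums per locus or region, and subsets by exon number. Python 3.11.15, pandas 2.3.3, numpy 2.4.6, SciPy 1.17.1 and matplotlib 3.10.9 were used. No genome sequence was used here, and 1 locus that the naming rule picks is not reported here.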

Additional observations from a re-analysis of the deposited data

How the results depend on the processing

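The median difference over members kept its sign under every alternative except the restriction to members with 1 exon, where it was 0.23 for LAC against CG and -0.24 for HAC against LAC. Other pseudocounts cannot turn the sign of any single difference, so for them the kept sign was fixed in advance. With median-of-ratios factors the single-exon medians became -0.08 for LAC against CG, -0.03 for HAC against CG and 0.02 for HAC against LAC, while those of members with 2 or more exons kept their sign. No paired analysis was possible because each group has 1 library and the groups share only the replicate number 1. For the same reason no replicate could be left out, and no result has a test. Levels near 1 FPKM limit the size of any difference on this scale, and the labels of LAC and HAC are those of the sample titles, which the file headers leave uncertain. Alternatives that restrict by exon number or to members alone at a locus, sum per region or ask for estimated reads were chosen after seeing the data.

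Counts of higher and lower members depended on the settings, and the cause was not tested beyond what each construction implies. With a pseudocount of 0.1, 194 were higher in LAC against CG, 400 higher in HAC against CG (median 0.31) and 205 lower in HAC against LAC (median 0.92), and LAC stood apart at 55.6% and HAC at 27.8%. With a pseudocount of 5, 43 members were higher and 86 lower for LAC against CG (median -0.13), 54 higher and 63 lower for HAC against CG (0.1), and 118 higher and 56 lower for HAC against LAC (0.26), so the larger count in HAC against CG was then the lower one. LAC stood apart at 38.6%, HAC at 38.1% and CG at 23.3%. A minimum of 5 FPKM left 59 members higher and 116 lower for LAC against CG (median -0.16), 95 higher and 79 lower for HAC against CG, and 172 higher and 75 lower for HAC against LAC (0.38), with LAC apart at 44.2% and CG at 22.7%. A size rule of 2 left 43 members higher and 92 lower for LAC against CG, 67 higher and 52 lower for HAC against CG, and 172 higher and 49 lower for HAC against LAC, with CG apart at 19.9%. Median-of-ratios factors gave 81 higher in LAC against CG (median -0.6) and medians of 0.19 for HAC against CG and 0.85 for HAC against LAC.

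Summed per locus, 79 loci were higher in LAC against CG, 148 were higher and 75 lower in HAC against CG, the median was 0.33 for HAC against LAC, and LAC stood apart at 56.3%, HAC at 31.1% and CG at 12.5%. Summed per region over both strands, 64 were higher in LAC against CG, 136 higher and 57 lower in HAC against CG and 67 lower in HAC against LAC (median 0.42), with LAC apart at 58%, HAC at 30.9% and CG at 11.1%. Members with 2 or more exons had medians of -0.65, 0.35 and 1.1 for LAC against CG, HAC against CG and HAC against LAC, with 78 lower in the last. Members with 1 exon gave 39 higher and 34 lower for LAC against CG, 24 higher and 31 lower for HAC against CG (median 0.01), and 50 higher and 44 lower for HAC against LAC, with LAC apart at 43.9% and CG at 24.5%. Members alone at their locus gave 52 higher and 179 lower for LAC against CG (median -0.13), 105 higher and 41 lower for HAC against CG, and 326 higher and 56 lower for HAC against LAC (0.28), with LAC apart at 55% and CG at 11.1%. Asking for at least 10 estimated reads changed no count, because every member tested already had that many. Over the named members no difference of at least 1 changed sign under the factors. Some smaller differences did change sign. LAC minus CG went from 0.36 to -0.07 at MSTRG.6675.1 and from 0.4 to -0.03 at MSTRG.7597.1. HAC minus LAC went from -0.25 to 0.08 at MSTRG.16785.1. Others kept their sign, such as LAC minus CG of MSTRG.10224.1, from 0.85 to 0.47. Other pseudocounts cannot turn a sign.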

Other observations

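Some members were listed in a single library. At 5 FPKM or more in 1 library and 0 in the others were 9 members in LAC, 14 in HAC and 6 in CG. Among them, MSTRG.9886.2, a 3-exon member on the minus strand at NC_013679.1:26721117-26749239 and 108 kb from EFNA5, an ephrin gene, had 43.3 FPKM in HAC. MSTRG.25287.14, with 3 exons and 1623 bases, had 238 FPKM in HAC, but its locus, with 10 members, summed to 1828 FPKM in CG, 1548 FPKM in LAC and 3429 FPKM in HAC, so a single transcript at 0 there does not stand for a silent locus. MSTRG.16948.3 and MSTRG.16948.4, listed above 0 in LAC alone, belong to the abundant locus beside NEMF. So do MSTRG.16948.9 and MSTRG.16948.10, listed in CG alone, and MSTRG.16948.11, listed in HAC alone. MSTRG.16949.6, listed in CG alone, is at the locus that overlaps it. Each member enters these counts only through the library in which it is high. The same share over all long non-coding transcripts was not computed.

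The balance of higher and lower members differed by their mean level. Of members with a mean of 1 to 5 FPKM 260 were lower and 55 higher in LAC among 961 tested, and of those with a mean of 5 to 50 FPKM 77 were lower and 23 higher among 211. At 50 FPKM or more, 19 were lower and 27 higher among 86, where isoforms of the same locus count separately. Counted at any level, 10 members of MSTRG.16948 and MSTRG.16949 were higher and 6 lower, though their joint sum differed by 0.08. At MSTRG.18561 to MSTRG.18568 the counts were 12 and 3, and at MSTRG.25287 to MSTRG.25291 they were 4 and 5. In HAC against CG, 150 of 1043 members with a mean of 1 to 5 FPKM were higher and 44 lower, while at 50 FPKM or more 20 of 83 were higher and 26 lower. At those loci, in the same order and at any level, 7, 4 and 6 members were higher and 10, 10 and 3 lower. The same balance by level was not computed over all long non-coding transcripts.

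Markers of further cell types varied between the libraries as well. In LAC against CG, theca markers summed to 123 CPM in LAC and 132 CPM in CG, cumulus expansion markers to 4260 CPM in LAC and 4900 CPM in CG, and smooth muscle markers to 72.5 CPM in LAC and 64.5 CPM in CG. In other lists single genes carried the sum. Endothelial markers summed to 7.94 CPM in LAC, against 48.8 CPM in CG, of which TEK held 4.23 CPM in LAC and 46.7 CPM in CG, while PECAM1, VWF and CDH5 were slightly higher in LAC and the median difference of the list was 0.25. Macrophage markers summed to 22.5 CPM in LAC, against 52.1 CPM in CG, of which MSR1 held 8.2 CPM in LAC and 47.3 CPM in CG, while MRC1, CD68 and CSF1R were higher in LAC and the median was 0.43. Markers of oviduct and surface epithelium summed to 21.8 CPM in LAC, against 82.9 CPM in CG, with CDH1 and EPCAM lower and KRT8 and KRT18 higher in LAC. Whether any of these cell types holds the members that differed was not tested.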
